A study of Mus musculus with 28 samples.

Results

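The cell cycle and DNA replication genes are a list of 34 mouse genes whose transcripts rise when cells copy their DNA and divide. They were picked by gene symbol, with no threshold on their values but with earlier results of these data known, from 54501 gene identifiers in the deposited tables, and all 34 were found. The study asked whether aspirin (acetylsalicylate) given with trimetazidine, an inhibitor of fatty acid oxidation, improves disease in obese mice, and sequenced RNA of their liver and muscle. All mice were male Lepob/Lepob C57BL/6J, which lack functional leptin and become obese, and all ate the AMLN diet, rich in fat, fructose and cholesterol, from 4 weeks of age for 20 weeks before the injections and during them. Treated mice were injected intraperitoneally each day with both drugs, 3.0 mg/kg of aspirin and 5.0 mg/kg of trimetazidine, and vehicle mice with an equal volume of the solvent. At 40 d each tissue had 6 treated and 6 vehicle libraries, and at 24 h each tissue had 1 treated and 1 vehicle library. Treated mice are numbered 4_5 and 5_1 to 5_5 in the labels and vehicle mice 2_1, 2_3, 2_4, 2_5, 3_2 and 6_1. Since no first digit is shared, whatever goes with that digit cannot be told apart from the treatment.

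A cell enters the cycle when D-type cyclins bind their kinases and free the E2F factors from the retinoblastoma protein. E2F then turns on the helicase, clamp and nucleotide genes needed for S phase, and the mitotic cyclins, kinases and spindle proteins follow in G2. Hepatocytes of an adult liver and the fibres of skeletal muscle rarely divide, so in both tissues these transcripts are low and can come from immune, vascular or other dividing cells as well as from the main cell type. In whole tissue, fewer cells of a type and less RNA per cell cannot be told apart. The list holds 3 G1 and G1/S cyclins, 6 subunits of the replicative helicase, 5 genes of nucleotide supply and the fork clamp, 5 cyclins, kinases and partners of S and M phase, 7 genes of mitotic kinases, checkpoint and the anaphase-promoting complex, and 8 genes of chromosomes and spindle. The last 3 groups together are called the 20 mitotic and chromosome genes below.

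The 28 libraries held 16060699 to 19920148 reads on genes. Values are FPKM (fragments per kilobase of transcript, scaled to library size). The labelled tissues matched their markers. The summed level of 6 hepatocyte markers lay between 21295 and 37846 FPKM in the 12 livers and between 8.37 and 171 FPKM in the 12 muscles. The 6 muscle fibre markers summed to 29886 to 56655 FPKM in muscle, and to at most 4.00 FPKM in liver, in treated 4_5, where every other liver had at most 0.218. In vehicle mice 32 of the 34 genes had a higher mean FPKM in liver than in muscle, with Ccne2 and Rrm1 the exceptions. The 2 tissues were normalized separately, so this is a description.

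In treated livers at 40 d the largest difference among the 23 genes of the list that could be tested was a lower level of Ccnd1, which encodes cyclin D1, the partner of Cdk4 and Cdk6 that carries growth signals into the cycle. Its mean was 11.1 ± 4.83 FPKM in treated livers and 19.5 ± 3.28 FPKM in vehicle livers (SD, n = 6 each). Next came Rrm2, the regulated subunit of ribonucleotide reductase, with 3.51 ± 2.4 FPKM in treated livers and 5.38 ± 0.945 FPKM in vehicle livers. Neither passed the test, and no gene of the list did. Of the 34 genes, 23 reached 1 FPKM in 6 or more of the 12 livers and were tested with limma on log2(FPKM + 1), and 0 had a Benjamini-Hochberg adjusted p under 0.05. Over all genes 0.255% passed (28 of 10995). At an unadjusted p under 0.05, 2 of the 23 were lower, Ccnd1 and Rrm2, against 7.35% of all genes tested. In none of the 23 did treated livers all lie below vehicle livers, against 0.728%. The sign was negative for 19 of the 23, against 51.0% of all genes tested, and the median log2 fold change was −0.087, against −0.003 over all genes. A second fit, limma voom on reads recovered from the FPKM values, covers all 34 genes: 31 had a negative sign, against 49.1% of all genes, the median was −0.19, and 0 passed at an adjusted p under 0.05, against 0.202%. Its unadjusted p was under 0.05 for the same 2 genes, against 6.16% of all genes on the lower side. In it the low gene Bub1, at a log2 fold change of −0.92 (SE 0.58), lay between Ccnd1 (−0.93) and Rrm2 (−0.84). All these p-values measure the spread between libraries labelled as separate mice. In plain FPKM fewer genes were lower: the treated mean lay below the vehicle mean for 22 of the 34. Among those where it did not were Mki67, at 1.16 FPKM treated and 1.08 FPKM vehicle, and Plk1, at 1.20 and 0.986 FPKM.

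**Figure D1:**
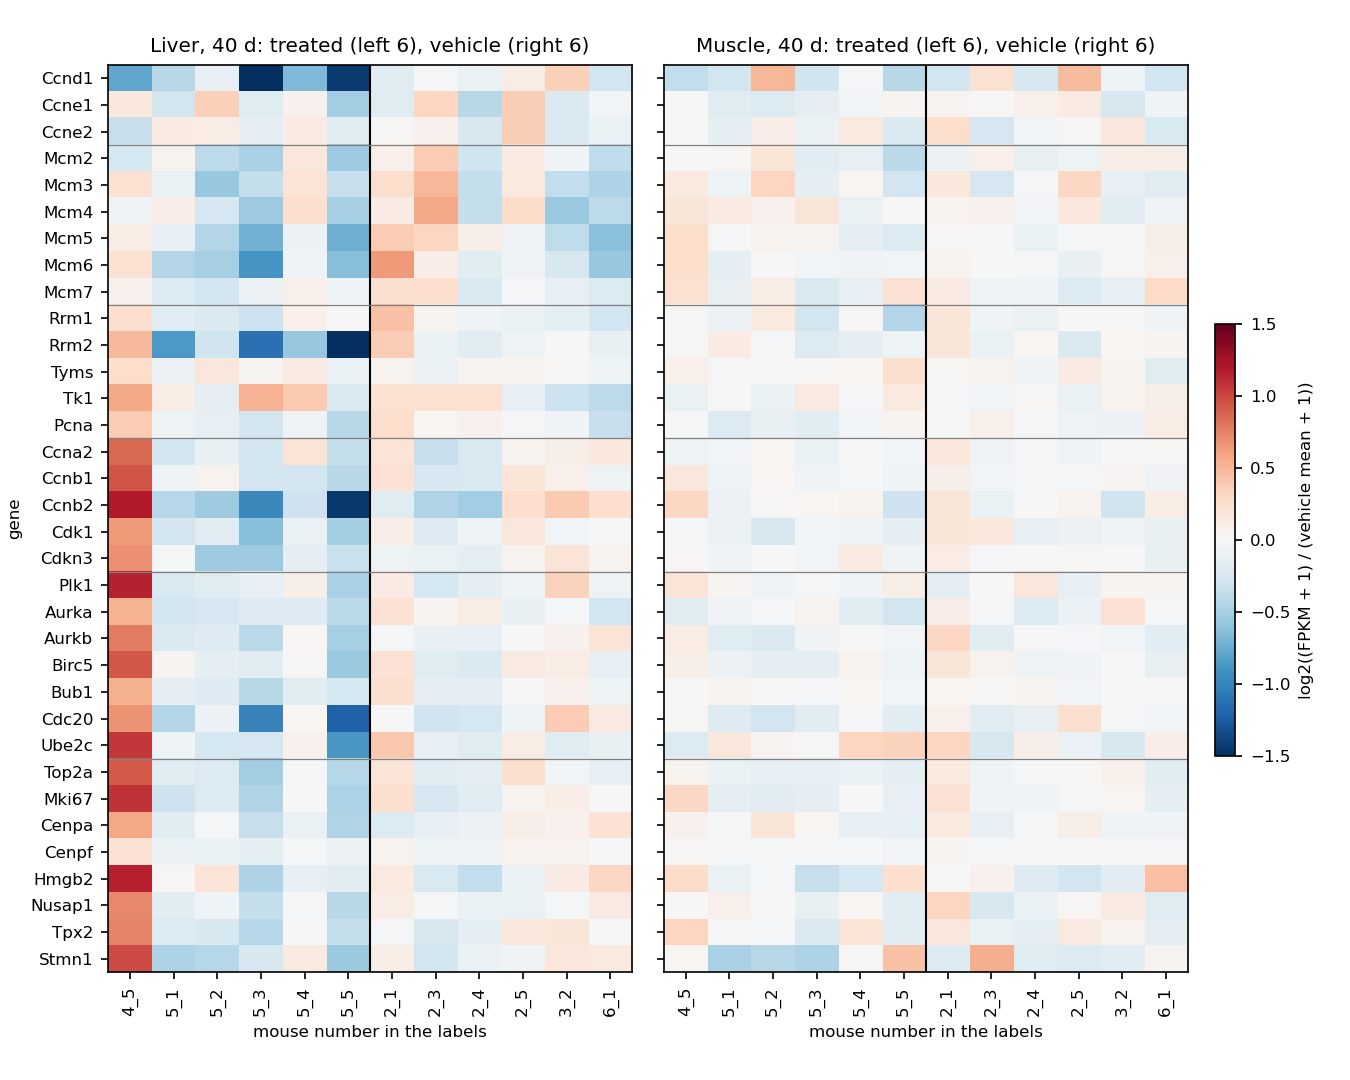
Each square is 1 gene in 1 library at 40 d, in liver (left) and muscle (right), coloured by log2 of (FPKM + 1) over (vehicle mean + 1); the 6 treated libraries stand left of the black line and the 6 vehicle libraries right of it, and grey lines part the groups of genes. Treated liver 4_5 is red for the mitotic and chromosome genes in the lower part, treated livers 5_3 and 5_5 are mostly blue there, and Ccnd1 in the top row is blue in treated livers, deepest in 5_3 and 5_5 and palest in 5_2.

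Ccnd1 had 4.77, 11.5 and 17.8 FPKM as the lowest, median and highest of the 6 treated livers, and 15.9, 18.7 and 25.2 FPKM in the 6 vehicle livers. In treated livers 5 of 6 lay below every vehicle liver, and the groups overlapped through treated 5_2 alone, at 17.8 FPKM. The log2 fold change was −0.86 (SE 0.25), with an unadjusted limma p of 0.0037 and an adjusted p of 0.175. The lowest values were those of treated 5_3, with 4.77 FPKM, and treated 5_5, with 6.56 FPKM. In treated 4_5, which was the highest liver for most of the other genes, Ccnd1 stood at 10.9 FPKM. With 1 library left out at a time the log2 fold change lay between −1.01 (without treated 5_2, adjusted p = 0.0647) and −0.67 (without treated 5_3, adjusted p = 0.271). Ccnd1 (ENSMUSG00000070348, GRCm38 chromosome 7, 144929931 to 144939925, minus strand) shares 23.4% of its exonic bases with LTO1 on the opposite strand, and no source used here states whether reads were counted by strand.

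The E-type cyclins pair with Cdk2 at the start of S phase. Ccne1 averaged 1.19 ± 0.479 FPKM in treated livers and 1.24 ± 0.495 FPKM in vehicle livers (log2 fold change −0.037, SE 0.17, adjusted p = 0.947). Ccne2 was too low for the test, at 0.746 ± 0.233 FPKM in treated livers and 0.790 ± 0.293 FPKM in vehicle livers, and shares 17.4% of its exonic bases with Ints8 on the opposite strand. For both E-type cyclins the ranges of the groups overlapped.

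Mcm2 to Mcm7 encode the 6 subunits of the helicase ring that unwinds DNA at the fork. All 6 had a lower mean in treated livers, with log2 fold changes from −0.34 (Mcm6) to −0.074 (Mcm7), and none passed the test (smallest adjusted p 0.520). Mcm6 had 2.23, 3.30 and 6.00 FPKM as lowest, median and highest in treated livers, against 3.03, 4.52 and 8.27 FPKM in vehicle livers, a log2 fold change of −0.34 (SE 0.21). Mcm5 had 1.30, 2.14 and 3.12 FPKM in treated livers, against 1.47, 2.86 and 3.95 FPKM in vehicle livers (−0.29, SE 0.19). Mcm2 had 1.40, 1.78 and 2.94 FPKM in treated livers, against 1.69, 2.53 and 3.54 FPKM in vehicle livers (−0.22, SE 0.15). For each of the 3 subunits the groups overlapped over most of their range. Vehicle livers themselves differed: 2_1 was the highest of the 12 livers for Mcm5 and Mcm6, and 2_3 for Mcm2, Mcm3, Mcm4 and Mcm7, while vehicle 6_1 was the lowest vehicle liver for Mcm2, Mcm3, Mcm5 and Mcm6. Of the other subunits, Mcm3 averaged 3.05 ± 0.913 FPKM in treated livers and 3.42 ± 1.24 FPKM in vehicle livers. Mcm4 averaged 2.81 ± 0.848 FPKM in treated livers and 3.19 ± 1.31 FPKM in vehicle livers. Mcm7 averaged 3.83 ± 0.483 FPKM in treated livers and 4.11 ± 0.774 FPKM in vehicle livers, and shares 8.7% of its exonic bases with genes on the opposite strand.

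Ribonucleotide reductase makes the deoxyribonucleotides for DNA. Rrm2, the subunit made mainly in S phase, had 1.20, 2.91 and 7.92 FPKM as lowest, median and highest in treated livers, against 4.70, 5.01 and 7.25 FPKM in vehicle livers. In treated livers 5 of 6 lay below every vehicle liver and treated 4_5, with 7.92 FPKM, lay above them all. The log2 fold change was −0.64 (SE 0.26), with an unadjusted limma p of 0.0301 and an adjusted p of 0.324. Without treated 4_5 it was −0.86 (SE 0.19, adjusted p = 0.116) and the groups no longer overlapped, as for 1.03% of all genes tested on the lower side. Nothing is read from this, since 4_5 held the highest Rrm2 value and its removal lowers the treated mean by construction. Without treated 5_5 it was −0.46. Rrm1, the large subunit, averaged 1.92 ± 0.434 FPKM in treated livers and 2.03 ± 0.564 FPKM in vehicle livers (log2 fold change −0.046, SE 0.12).

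The salvage enzyme thymidine kinase, Tk1, had the largest positive value of the list. It had 2.43, 3.83 and 4.98 FPKM in treated livers, against 2.07, 3.22 and 3.72 FPKM in vehicle livers, and 3 of the 6 treated values exceeded all 6 vehicle values. Its log2 fold change was 0.23 (SE 0.17, adjusted p = 0.575). Tyms, thymidylate synthase, averaged 1.79 ± 0.281 FPKM in treated livers and 1.65 ± 0.114 FPKM in vehicle livers (0.070, SE 0.073). Pcna, the sliding clamp of the polymerases and the gene with the highest mean level of the list in liver, averaged 19.9 ± 4.22 FPKM in treated livers and 21.0 ± 2.94 FPKM in vehicle livers (−0.084, SE 0.13). Tyms and Pcna have pseudogenes in the annotation (Tyms-ps, and Pcna-ps1 and Pcna-ps2), which the authors' counting may have split reads with.

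**Figure D2:**
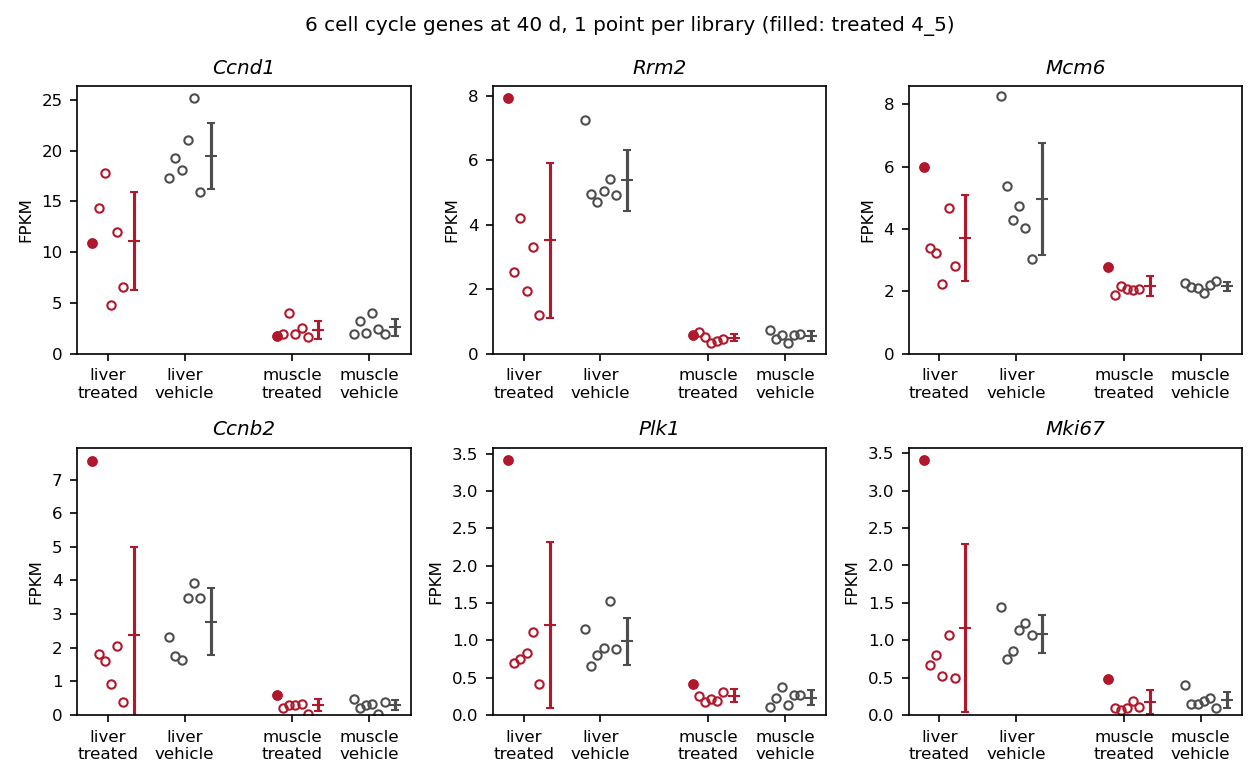
FPKM of 6 genes in every library at 40 d, with treated libraries in red and vehicle libraries in grey, treated liver or muscle 4_5 filled, and the mean with SD beside each group (n = 6; the lower SD bar of Ccnb2 in treated livers is cut at 0). In liver Ccnd1 is lower in treated livers with an overlap through 1 library, Rrm2 is lower except for 4_5 at 7.92 FPKM, and Ccnb2, Plk1 and Mki67 have 4_5 far above the rest, at 7.56, 3.41 and 3.4 FPKM; in muscle all but Ccnd1 and Mcm6 lie below 1 FPKM.

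The 20 mitotic and chromosome genes differed more among treated livers than between the groups. Their summed level was 78.9 FPKM in treated 4_5, 32.3 in treated 5_4, 26.4 in 5_2, 25.3 in 5_1, 20.3 in 5_3 and 16.8 FPKM in treated 5_5, against 26.0 to 38.2 FPKM in the 6 vehicle livers. Treated 4_5 was thus above all vehicle livers, 5_1, 5_3 and 5_5 were below all of them, and the group means nearly met, with 33.3 ± 22.9 FPKM in treated livers and 33.2 ± 5.23 FPKM in vehicle livers (SD, n = 6 each). Treated 4_5 was the highest of the 12 livers for each of the 20 genes, and treated 5_3 or 5_5 was the lowest for each of the 20. Over the whole list 24 of 34 were highest in 4_5, against 15.5% of the 15851 genes of the second fit. Treated 5_5 was lowest for 19 of 34 and treated 5_3 for 10 of 34, against 11.9% and 12.7%. The genes outside these 20 for which 4_5 was highest were Rrm2, Tyms, Tk1 and Pcna.

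Ccnb2, a B-type cyclin that activates Cdk1 for mitosis, had 0.384, 1.70 and 7.56 FPKM as lowest, median and highest in treated livers, against 1.62, 2.91 and 3.94 FPKM in vehicle livers. Treated 4_5 lay above all vehicle livers and 3 treated livers lay below all of them, and the log2 fold change was −0.37 (SE 0.35, adjusted p = 0.673). Cdc20, an activator of the anaphase-promoting complex, had 0.458, 1.85 and 4.41 FPKM in treated livers, against 1.75, 2.32 and 3.41 FPKM in vehicle livers (−0.32, SE 0.27, adjusted p = 0.630). Cdk1, the kinase that drives entry into mitosis, had 0.541, 1.06 and 2.76 FPKM in treated livers, against 1.11, 1.36 and 1.72 FPKM in vehicle livers (−0.17, SE 0.17, adjusted p = 0.701). In all 3 genes the highest treated liver was 4_5.

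Mki67, which encodes the proliferation antigen Ki-67, had 3.4 FPKM in treated 4_5 and at most 1.07 FPKM in the other treated livers, against 0.745 to 1.44 FPKM in vehicle livers. Stmn1, a protein that destabilizes microtubules, had 17.5 FPKM in treated 4_5 and at most 9.33 FPKM in the others, against 6.72 to 9.47 FPKM in vehicle livers. Hmgb2, a DNA-bending chromatin protein, had 9.72 FPKM in treated 4_5 and at most 4.45 FPKM in the others, against 2.70 to 4.91 FPKM in vehicle livers. The kinase gene Aurka, of the spindle poles, averaged 2.05 ± 0.822 FPKM in treated livers and 2.26 ± 0.384 FPKM in vehicle livers. The remaining tested genes of the 20 were Ube2c, which supplies ubiquitin to the anaphase-promoting complex, Birc5 (survivin, of the chromosomal passenger complex) and Cenpa, the histone of centromeres. Their log2 fold changes were −0.04, 0.03 and −0.08, each smaller than its SE.

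The other 10 of these 20 fell under the filter in liver, and in each of them treated 4_5 had the most reads among the treated livers, while the order of the other treated livers varied from gene to gene. Top2a, the topoisomerase that untangles chromosomes, had 447 reads in treated 4_5 and 46 to 141 in the other treated livers, against 106 to 215 reads in vehicle livers. Ccna2, cyclin A, had 192 reads in treated 4_5 and 37 to 89 in the others, against 35 to 91 reads in vehicle livers. It shares 12.5% of its exonic bases with Exosc9 on the opposite strand. In both genes the other treated livers overlapped the vehicle livers. Tpx2, a spindle assembly factor, had 178 reads in treated 4_5 and 24 to 68 in the others, against 41 to 92 reads in vehicle livers. Ccnb1, the other B-type cyclin, had 175 reads in treated 4_5 and 19 to 57 in the others, against 29 to 73 reads in vehicle livers. Again 4_5 was alone above the vehicle livers. Bub1, a kinase of the spindle checkpoint, had 79 reads in treated 4_5, a median of 15.5 reads over treated livers and 1 read in treated 5_3, against 17 to 48 reads in vehicle livers. The other 5 were Plk1, Aurkb, Cdkn3, Nusap1 and Cenpf, which had medians of 21.0 to 44.5 reads over treated livers and of 34 to 48.5 reads over vehicle livers, and 4_5 was again the highest. In the voom fit the log2 fold changes of these 10 ran from −0.92 (Bub1) to −0.011 (Plk1), with adjusted p from 0.555 to 0.994.

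Markers of other cell types also stood apart in these libraries. The summed level of 7 Kupffer cell markers was 1071 FPKM in treated 4_5 and 323 to 439 FPKM in the other treated livers, against 293 to 349 FPKM in vehicle livers. Most of the sum in 4_5 was Cd5l and Marco, at 695 and 153 FPKM. Clec4f, of the same list, did not stand apart, at 49.4 to 77.6 FPKM in treated livers, against 52.7 to 74.9 FPKM in vehicle livers. The 8 neutrophil markers summed to 473 FPKM in treated 4_5 and to 32.4 to 125 FPKM in the other treated livers, against 12.4 to 18.8 FPKM in vehicle livers, and 1 of the 4 tested passed, S100a9 (adjusted p = 0.0449). Treated 4_5 was thus the highest liver for both lists. Endothelial markers were highest in 4_5, at 64.5 FPKM, and lowest in 5_5, at 26.2 FPKM, against 36.9 to 53.9 FPKM in vehicle livers. Hepatocyte markers summed to 28442 FPKM in 4_5 and to 21295 FPKM in 5_5, against at least 30567 FPKM in vehicle livers. Alb made up the largest part of this sum, with a mean of 19200 FPKM in treated livers and 22320 FPKM in vehicle livers. Fgb and Apoa1, of the same list, had a higher mean in treated livers. Fgb had 571 to 1350 FPKM in treated livers, against 483 to 548 FPKM in vehicle livers. Apoa1 averaged 5280 ± 1006 FPKM in treated livers and 4705 ± 527 FPKM in vehicle livers. B cell markers summed to 15.4 FPKM in 4_5, 15.9 in 5_1, 11.9 in 5_3 and 8.25 in 5_5, against at most 5.51 FPKM in vehicle livers. Stellate cell and fibroblast markers summed to 173 FPKM in 5_5 and 149 FPKM in 5_1, against at most 113 FPKM in vehicle livers. Of these 7 markers 4 had a negative sign in the fit: Lrat, Pdgfrb, Acta2 and Reln. Col1a1 and Col3a1 reached 41.8 and 49.4 FPKM in treated livers, against at most 17.9 and 25.1 FPKM in vehicle livers. The macrophage and monocyte markers summed to 863 FPKM in 5_5 and to 420 FPKM in 4_5, against at most 411 FPKM in vehicle livers, but 730 FPKM of the sum in 5_5 was Spp1 alone, a secreted phosphoprotein gene that the cholangiocyte list holds too. Without Spp1 the other 8 macrophage and monocyte markers summed to 319 FPKM in 4_5 and 133 FPKM in 5_5, against 118 to 144 FPKM in vehicle livers. The other 5 cholangiocyte markers summed to 92.2 FPKM in 5_2 and 15.3 FPKM in 5_5, against 7.72 to 16.4 FPKM in vehicle livers. Treated 4_5 thus stood apart in the sums of Kupffer cell, neutrophil and macrophage markers, though not in each marker. Treated 5_5 stood apart in Spp1, in a high sum of stellate cell and fibroblast markers, and in low sums of hepatocyte and endothelial markers. These sums do not show that each marker went the same way. The part of these cells in the levels of the cell cycle genes was not tested.

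**Figure D3:**
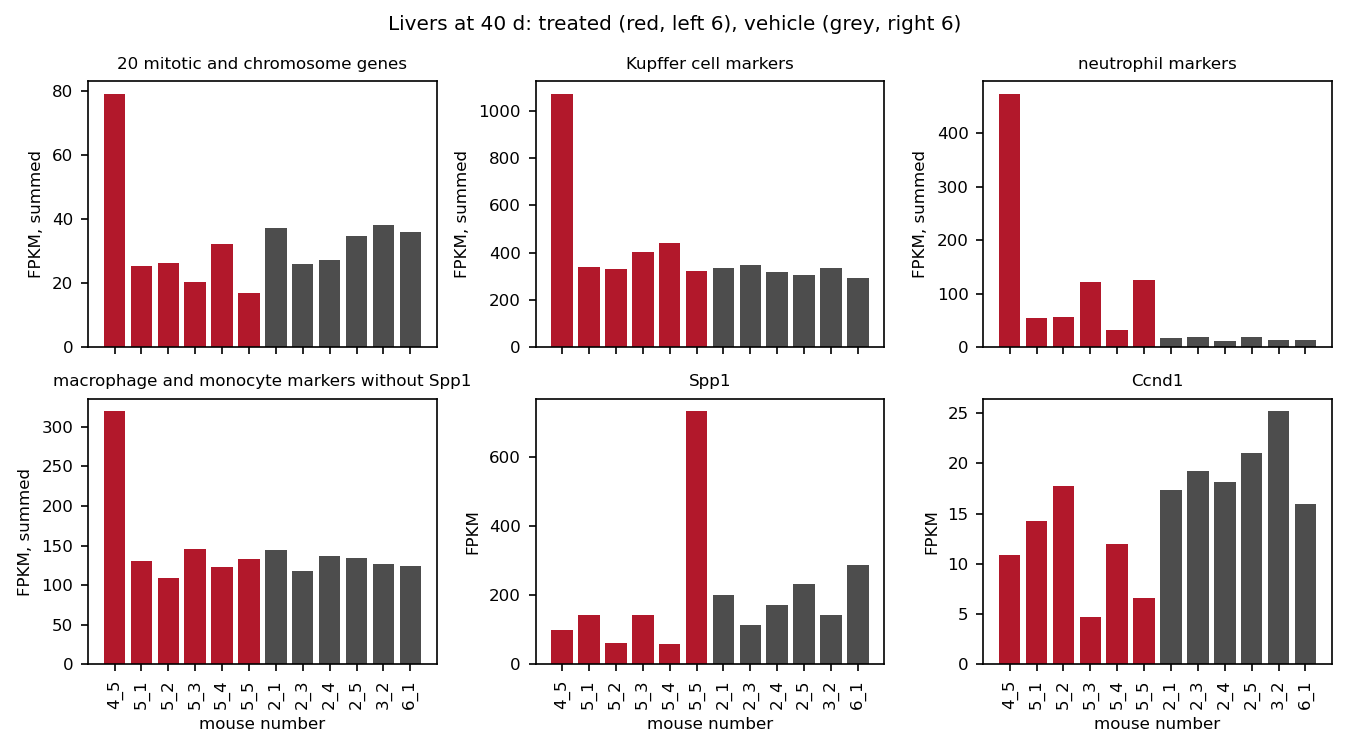
Bars give, for each liver at 40 d, the summed FPKM of the 20 mitotic and chromosome genes and of 3 lists of cell type markers, and the FPKM of Spp1 and Ccnd1, with the 6 treated livers in red on the left and the 6 vehicle livers in grey on the right of each panel. The mitotic sum and the Kupffer cell, neutrophil and macrophage markers (these without Spp1) are highest in treated 4_5 (78.9, 1071, 473 and 319 FPKM), Spp1 is highest in treated 5_5 (730 FPKM), and Ccnd1 is lowest in treated 5_3 and 5_5.

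Since treated 4_5 was the highest liver for 24 of the 34 genes, leaving it out lowers the treated means of these genes by construction, and the values without it are a description. With treated 4_5 left out, 20 genes of the list passed the filter and 18 had a negative sign, against 50.3% of all genes tested. The median log2 fold change was −0.24. At an unadjusted p under 0.05, 8 of the 20 were lower, against 7.01% of all genes tested: Aurka, Ccnb2, Ccnd1, Cdc20, Cdk1, Mcm6, Rrm2 and Stmn1. With any other single liver left out, the count lower at an unadjusted p under 0.05 was 1 to 3, against 5.39% to 8.48% of all genes tested, and Ccnd1 was among them each time. None of the 20 passed at an adjusted p under 0.05, against 0.202% of all genes. Ccnb2 then averaged 1.35 ± 0.679 FPKM over 5 treated livers (log2 fold change −0.69, SE 0.23, adjusted p = 0.212), and Cdk1 averaged 0.919 ± 0.295 FPKM (−0.34, SE 0.11, adjusted p = 0.197). The vehicle means were 2.77 FPKM for Ccnb2 and 1.41 FPKM for Cdk1. Ccnd1 hardly moved, at −0.88.

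**Figure D4:**
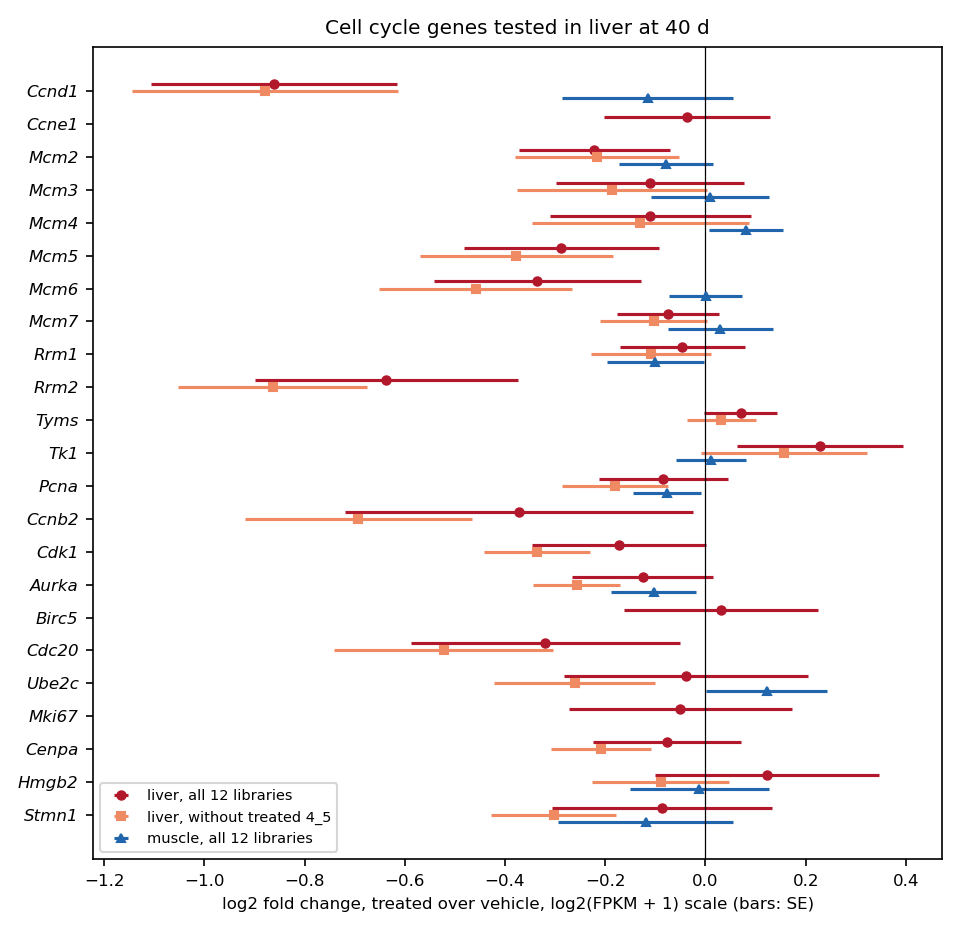
Log2 fold changes, treated over vehicle, of the 23 genes tested in liver at 40 d, with all 12 livers (red circles) and without treated 4_5 (orange squares), and of those tested in muscle (blue triangles); bars are SE. Ccnd1 is at −0.86 with 4_5 and −0.88 without it, the mitotic genes that could be tested without 4_5, their highest liver, lie further to the left (Ccnb2 at −0.69, against −0.37 with 4_5), and the muscle values lie near 0.

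The promoters show what the mitotic and the helicase genes share in sequence. A search for 3 motifs was made on both strands in RefSeq windows of build GRCm38.p6, from 250 bases before to 50 bases after the annotated start. The cell cycle homology region (TTTGAA) is bound by the MuvB core of the DREAM and MYBL2 complexes, the CCAAT box (CCAAT) by the factor NF-Y, and the E2F site (TTTCCCGC, TTTCGCGC, TTTGCCGC or TTTGGCGC) by E2F factors. Windows were found for 27 of the 34 genes, and not for Ccnd1, Ccne2, Mcm4, Ccna2, Aurkb, Tpx2 and Stmn1. The cell cycle homology region was in 12 of the 16 mitotic and chromosome genes with a window and in 1 of the 5 helicase genes, against 17.9% of all 32851 windows. The CCAAT box was in 14 of these 16 and in 5 of the 5, against 37.4% of all windows. The E2F site was in 4 of the 5 helicase genes and in 1 of the 16, Cdk1, against 2.26% of all windows. No E2F match was found in the windows of the clamp and nucleotide genes Pcna, Rrm1, Rrm2, Tyms and Tk1, or in that of Ccne1. Both the homology region and the CCAAT box were in 12 of the 16, against 6.95%. A match is a description and not a binding site. The windows of Ccnb1, Bub1, Birc5 and Nusap1 held no TTTGAA, and these genes too were highest in treated 4_5. Shown first are the windows of 4 mitotic genes that hold TTTGAA. Then come those of Mcm6 and Rrm2, the helicase subunit and the nucleotide gene with the lowest fold changes. All are in lower case, 5′ to 3′ on the gene's strand, with matches in capitals (ATTGG is CCAAT on the other strand). In Mcm6 the first run of capitals holds 2 overlapping E2F matches on opposite strands. The windows lie at Ccnb2 chr9:70421505-70421804 on the minus strand, Cdk1 chr10:69352863-69353162 on the minus strand, Plk1 chr7:122159185-122159484 on the plus strand, Cdc20 chr4:118437294-118437593 on the minus strand, Mcm6 chr1:128359656-128359955 on the minus strand and Rrm2 chr12:24708004-24708303 on the plus strand.
Ccnb2: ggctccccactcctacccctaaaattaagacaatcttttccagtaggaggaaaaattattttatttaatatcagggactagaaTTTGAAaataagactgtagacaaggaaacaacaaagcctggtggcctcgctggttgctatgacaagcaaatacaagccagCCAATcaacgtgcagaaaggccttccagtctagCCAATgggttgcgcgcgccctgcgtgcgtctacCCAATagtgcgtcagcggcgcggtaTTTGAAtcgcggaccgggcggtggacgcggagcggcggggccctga
Cdk1: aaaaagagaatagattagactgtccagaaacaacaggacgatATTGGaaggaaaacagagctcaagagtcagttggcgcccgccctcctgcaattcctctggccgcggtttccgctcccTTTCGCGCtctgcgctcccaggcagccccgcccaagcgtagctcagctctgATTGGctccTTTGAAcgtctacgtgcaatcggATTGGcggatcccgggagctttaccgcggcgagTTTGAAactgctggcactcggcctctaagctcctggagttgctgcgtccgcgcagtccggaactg
Plk1: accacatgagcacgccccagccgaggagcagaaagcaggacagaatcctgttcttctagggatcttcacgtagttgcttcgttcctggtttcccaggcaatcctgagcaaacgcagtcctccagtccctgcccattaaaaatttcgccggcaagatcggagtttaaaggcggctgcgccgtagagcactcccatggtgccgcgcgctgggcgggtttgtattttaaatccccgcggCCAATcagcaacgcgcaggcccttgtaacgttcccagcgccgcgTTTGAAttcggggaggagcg
Cdc20: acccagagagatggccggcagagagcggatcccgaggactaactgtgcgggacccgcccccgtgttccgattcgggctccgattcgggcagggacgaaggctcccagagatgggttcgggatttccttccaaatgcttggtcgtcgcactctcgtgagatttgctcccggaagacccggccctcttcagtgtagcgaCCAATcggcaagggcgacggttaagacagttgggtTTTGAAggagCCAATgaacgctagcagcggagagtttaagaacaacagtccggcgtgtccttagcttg
Mcm6: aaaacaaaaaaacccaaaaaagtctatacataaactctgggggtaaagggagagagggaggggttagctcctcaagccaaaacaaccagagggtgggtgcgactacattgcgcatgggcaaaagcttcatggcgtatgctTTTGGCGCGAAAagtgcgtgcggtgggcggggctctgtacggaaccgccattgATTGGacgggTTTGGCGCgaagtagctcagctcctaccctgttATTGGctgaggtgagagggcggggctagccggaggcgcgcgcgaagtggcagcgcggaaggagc
Rrm2: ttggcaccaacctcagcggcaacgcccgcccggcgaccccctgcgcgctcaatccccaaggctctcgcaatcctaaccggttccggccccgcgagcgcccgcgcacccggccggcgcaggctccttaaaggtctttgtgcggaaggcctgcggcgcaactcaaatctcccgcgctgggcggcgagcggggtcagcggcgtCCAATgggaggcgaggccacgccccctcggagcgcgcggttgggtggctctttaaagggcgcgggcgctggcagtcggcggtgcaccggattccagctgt
The last TTTGAA stands downstream of the last CCAAT box in Ccnb2, Cdk1 and Plk1, with another TTTGAA farther upstream in Ccnb2 and Cdk1, and the TTTGAA of Cdc20 stands between 2 CCAAT boxes, while Mcm6 has E2F matches and CCAAT boxes without the homology region, and Rrm2 has 1 CCAAT box.

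Other genes of the same pathways, from lists that leave out the 34, gave 0 genes past the test in either tissue. In liver the lists of genes acting in replication and mitosis had mostly negative signs too. At the replication fork 15 of 18 tested genes had a negative sign (median −0.098), in origin licensing and firing 8 of 11 (median −0.12), in nucleotide supply 6 of 9 (median −0.061), and in mitosis and cytokinesis 10 of 11 (median −0.14), against 51.0% of all genes tested. Rpa1, which coats single-stranded DNA, had the smallest p of these lists, with 5.30, 5.94 and 6.94 FPKM in treated livers, against 6.81, 7.25 and 8.69 FPKM in vehicle livers (log2 fold change −0.29, SE 0.075, adjusted p = 0.146). Spc24, of the kinetochore's Ndc80 complex, had 3.66, 7.83 and 12.3 FPKM in treated livers, against 8.01, 11.9 and 16.4 FPKM in vehicle livers (−0.64, SE 0.22, adjusted p = 0.245). Its partner Spc25 was at −0.34, Rfc4 of the clamp loader at −0.22, Orc3 of the origin recognition complex at −0.19, and the licensing inhibitor Gmnn at −0.23. Cad, of pyrimidine synthesis, was at 0.11.

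The upstream regulators had signs of both kinds. Of the G1 cyclins and cyclin-dependent kinases outside the list, 4 of 8 had a negative sign in liver (median 0.010), with Ccnh at −0.11 and Cdk6, a partner of cyclin D1, at −0.15. Of the RB, E2F and DREAM regulators 8 of 13 were negative (median −0.039). E2f1 averaged 2.4 ± 0.616 FPKM in treated livers and 3.19 ± 0.554 FPKM in vehicle livers (−0.31, SE 0.12, adjusted p = 0.317), and E2f3 averaged 1.89 ± 0.287 FPKM in treated livers and 2.26 ± 0.103 FPKM in vehicle livers (−0.18, SE 0.071, adjusted p = 0.309). Of the kinase inhibitors, 1 of 5 was negative and the median was 0.14. Cdkn2c (p18) averaged 7.73 ± 1.40 FPKM in treated livers and 6.49 ± 0.670 FPKM in vehicle livers (0.21, SE 0.10, adjusted p = 0.389), and Cdkn2d (p19) was at 0.17. Of the p53 target genes 7 of 10 were negative (median −0.10), with Zmat3 at −0.14 and Ccng1 at −0.24.

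In muscle at 40 d no cell cycle gene separated the groups. Of the 34, 13 passed the filter and 0 passed the test, against 0.0% of the 11708 genes tested. At an unadjusted p under 0.05, 451 genes (3.85%) and 0 of the 13 passed in the limma fit, and in the voom fit 663 genes (4.04%) and 0 of the 31 with enough reads, where 22 of the 31 had a negative sign, against 50.5%. The sign was negative for 7 of the 13, against 51.4% of all genes tested, with a median log2 fold change of −0.012, and all 13 lay between −0.12 and 0.12. In 19 of the 34 every muscle was below 1 FPKM. Ccnb1, Bub1 and Cdkn3 had mean reads of 4.17, 2.33 and 4.67 a library, under the minimum of the voom fit, so differences in them were not tested.

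Aurka had 1.29, 1.57 and 1.88 FPKM as lowest, median and highest in treated muscles, against 1.41, 1.72 and 2.22 FPKM in vehicle muscles (log2 fold change −0.10, SE 0.085). Pcna had 10.7, 11.8 and 12.9 FPKM in treated muscles, against 11.7, 12.3 and 13.5 FPKM in vehicle muscles (−0.076, SE 0.067), and 3 of 6 treated muscles lay below every vehicle muscle. Mcm4 had 2.25, 2.72 and 2.96 FPKM in treated muscles, against 2.09, 2.50 and 2.87 FPKM in vehicle muscles (0.081, SE 0.075). These 3 had the smallest p of the list in muscle, each with an adjusted p of 0.999, and their groups overlapped.

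Rrm1 had 2.24, 3.29 and 3.85 FPKM in treated muscles, against 3.09, 3.31 and 3.97 FPKM in vehicle muscles (−0.10, SE 0.097). Mcm2 had 0.834, 1.32 and 1.75 FPKM in treated muscles, against 1.25, 1.43 and 1.59 FPKM in vehicle muscles (−0.079, SE 0.094). Ube2c had 0.694, 1.11 and 1.47 FPKM in treated muscles, against 0.646, 0.949 and 1.43 FPKM in vehicle muscles (0.12, SE 0.12). Its exons share 22.8% of their bases with Tnnc2, a troponin gene of fast muscle fibres on the opposite strand, so that without strand its level in muscle is uncertain. Ccnd1 averaged 2.32 ± 0.894 FPKM in treated muscles and 2.58 ± 0.829 FPKM in vehicle muscles (−0.12, SE 0.17). Mcm3, Mcm6, Mcm7, Tk1, Hmgb2 and Stmn1 made up the rest of the 13, with fold changes from −0.12 (Stmn1) to 0.029 (Mcm7).

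Of the low genes in muscle, Ccne2 had 41 to 78 reads in treated muscles, against 35 to 78 reads in vehicle muscles. Mcm5 had 32 to 71 reads in treated muscles, against 43 to 53 reads in vehicle muscles. Cenpa had 30 to 54 reads in treated muscles, against 31 to 55 reads in vehicle muscles. Tpx2 had 23 to 66 reads in treated muscles, against 21 to 48 reads in vehicle muscles. The treated and vehicle ranges of each of these 4 overlapped. Mki67 had 87 reads in treated 4_5 and a median of 19.5 reads over treated muscles, against 14 to 68 reads in vehicle muscles, and the highest vehicle muscle was 2_1. Treated muscle 4_5 was the highest of the 12 for 7 of the 34, and for 6 of the 31 in the voom fit, against 8.55% of its genes. Vehicle muscle 2_1 was the highest for 10 of the 34, all 10 in the voom fit, against 8.14% of its genes. Of the 20 mitotic and chromosome genes 5 were highest in treated 4_5 and 7 in vehicle 2_1. Treated 4_5 was also the highest muscle in macrophage and monocyte markers, at 92.2 FPKM, against 54.4 to 79.3 FPKM in vehicle muscles. It was the highest in neutrophil markers too, at 61.7 FPKM, against 5.66 to 13.2 FPKM in vehicle muscles. The other treated muscles had 11.1 to 38.1 FPKM of neutrophil markers, and 5_1, 5_2, 5_3 and 5_5 also lay above every vehicle muscle. The part of these cells was not tested.

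The pathway lists in muscle gave medians between −0.054 (kinase inhibitors) and 0.053 (G1 cyclins and kinases). The genes with the smallest p were E2f5, at 0.25 (SE 0.13), Gins4 of the helicase assembly, at −0.13 (SE 0.077), and Cdk7, at 0.13 (SE 0.085), each with an adjusted p of 0.999. Cdk4, the other partner of cyclin D1, averaged 10.2 ± 1.97 FPKM in treated muscles and 9.03 ± 0.572 FPKM in vehicle muscles (0.15, SE 0.10).

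The difference between the tissues was tested in 1 limma fit of the 24 libraries at 40 d. Of the list, 13 genes passed the filter in both tissues and 0 had an adjusted p under 0.05, against 0.0106% of all genes (1 of 9436). The largest difference was that of Ccnd1, whose effect in liver minus that in muscle was −0.74 on the log2 scale (SE 0.31, unadjusted p = 0.0249, adjusted p = 0.905). Mcm6 came next at −0.34 (SE 0.23). Among the 13, only Ccnd1 was past an unadjusted p of 0.05, against 5.21% of all genes.

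At 24 h there was 1 library a group, so the ratios have no replicate check, and their 95% intervals cover counting error only. In liver 20 of the 34 had a mean of at least 1 FPKM and in muscle 16, and 0 of them reached a log2 ratio of 1 in either direction, against 1.94% of all genes in liver and 3.68% in muscle. The log2 ratio was negative for 12 of the 20 in liver, against 41.7%, and for 10 of the 16 in muscle, against 53.4%. The interval of the ratio left out 1 for 3 of the 20 in liver, against 41.4% of all genes, and for 9 of the 16 in muscle, against 50.7%. The width of an interval depends on the reads of the gene, and these shares are not matched for reads, so they do not show that the list changed less. In liver Ccnd1 stood at 16.4 FPKM in the treated library and 12.6 FPKM in the vehicle library, a ratio of 1.30 (1.19 to 1.42), opposite in sign to its value at 40 d. Cdc20 had 28 reads in the treated and 56 reads in the vehicle liver, a ratio of 0.575 (0.352 to 0.921), and Mcm6 had a ratio of 0.771 (0.651 to 0.911). Rrm2 had a ratio of 1.23 (0.984 to 1.55) and Pcna of 1.07 (0.966 to 1.18), and both intervals hold 1.

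In muscle at 24 h Aurka stood at 1.37 FPKM in the treated library and 2.83 FPKM in the vehicle library, a ratio of 0.483 (0.341 to 0.677). Stmn1 stood at 4.30 FPKM in the treated and 2.41 FPKM in the vehicle muscle, a ratio of 1.78 (1.33 to 2.42). Tk1 had a ratio of 0.596 (0.443 to 0.795), Mcm6 of 1.45 (1.17 to 1.80), Mcm3 of 1.41 (1.09 to 1.84) and Mcm4 of 0.749 (0.600 to 0.932), so the helicase subunits lay on both sides of 1. Among the low genes Cdk1 had 59 reads in the treated and 13 reads in the vehicle muscle, a ratio of 4.77 (2.58 to 9.47). Mki67 had 88 and 46 reads, treated and vehicle (ratio 2.01, 1.39 to 2.94), while Ccnb2 had 20 reads in each library. Ccnd1 in muscle had a ratio of 1.02 (0.858 to 1.22).

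**Figure D5:**
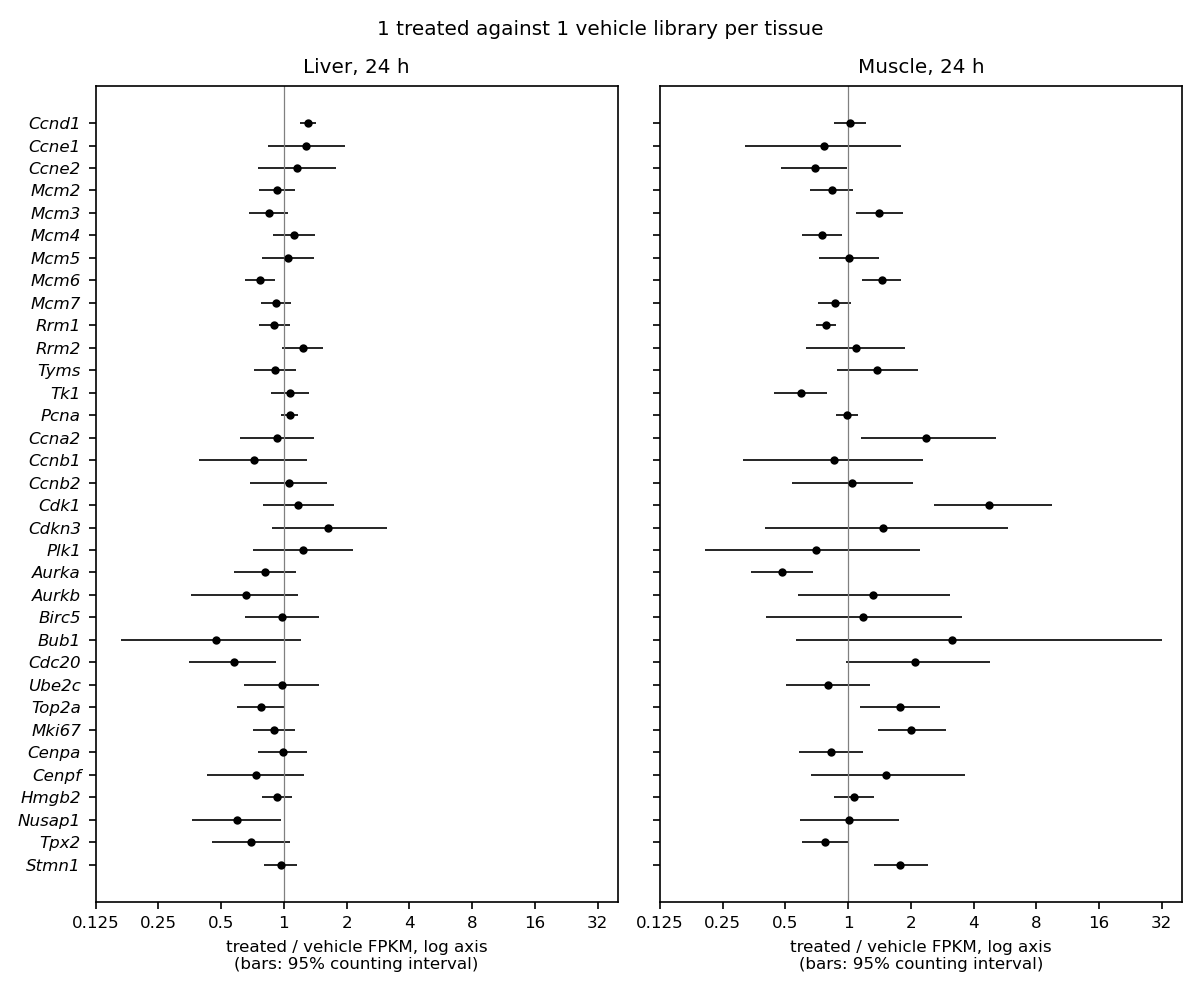
Ratio of FPKM in the treated library over the vehicle library at 24 h, on a log axis, for the 34 genes in liver (left) and muscle (right), with exact 95% intervals for counting error; each tissue has 1 library a group. In liver most intervals hold 1 and Ccnd1 is at 1.30; in muscle Cdk1 is highest at 4.77 and Aurka lowest at 0.483, and the widest intervals are those of genes with few reads.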

How the data were processed

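The labels' protocols name Trizol extraction and NEBNext Ultra library kits. The authors deposited FPKM values, per the file headers, in 3 tables (liver at 40 d, muscle at 40 d, and both tissues at 24 h), each normalized on its own. The genome build is GRCm38 (mm10), per the submitters' processing notes. No source used here names the aligner, the counter or the strand setting. Tests were made only within a table, apart from the difference between tissues.

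From these values log2(FPKM + 1) was tested two-sided, 6 against 6, by limma 3.58.1 in R 4.3.3 with an intensity trend, on genes reaching 1 FPKM in 6 or more of 12 libraries, with Benjamini-Hochberg adjustment over all of them and a threshold of 0.05. On this scale the change of low genes is understated. The difference between tissues was a contrast over 24 libraries. The values were whole multiples of 1 read within 0.01, so reads were recovered from FPKM and gene length, and limma voom was run on genes with a mean of at least 5 reads. At 24 h no test was made: both values are given with an exact binomial interval of the ratio. The fits were tested on simulated data. Replicates are libraries of mice with different numbers in the labels. Nothing in the labels says more of their origin. The labels do not say that the same number in liver and muscle is the same mouse.

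The 34 genes, the pathway and marker lists and the tests were chosen with earlier results of these data known. The lowest, median and highest value of each group are given for the 6 tested genes of the list with the smallest p in each tissue. Ranges of reads are given for the 4 low genes with the most reads. Values of other genes were chosen after they were seen. From each pathway list the 2 genes with the smallest p could be named. The value of 1 such gene is not reported here. Exon overlaps come from GENCODE vM21 (GRCm38) and promoter windows from RefSeq (GRCm38.p6). Alternatives were pseudocount 0.1, no filter, a mean of at least 1 FPKM, upper quartile scaling, array weights, voom, each library left out, and 4_5 with 5_2 left out. The marker sums without Spp1, and the counts of lower genes with each liver left out, were added after the data were seen.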

Additional observations from a re-analysis of the deposited data

Results flagged for a closer look

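Of 136 groups of 6 libraries looked at (34 genes, 2 tissues, treated and vehicle), 31 held a library far from the others by Dixon's test. Chance flags about 1 in 20 groups if they are independent and their values normal. These groups are the same libraries seen through 34 related genes, so the count is a description and cannot be set against that rate. Of the 31, 20 were treated liver 4_5, each time as the highest library. Its values were 2.49 FPKM for Ccna2, 2.19 for Ccnb1, 7.56 for Ccnb2, 2.76 for Cdk1, 1.85 for Cdkn3, 3.41 for Plk1, 3.70 for Aurka and 2.14 for Aurkb. They were 3.03 FPKM for Birc5, 0.959 for Bub1, 4.70 for Ube2c, 2.62 for Top2a, 3.4 for Mki67, 2.27 for Cenpa and 0.319 for Cenpf. They were 9.72 FPKM for Hmgb2, 1.82 for Nusap1, 2.01 for Tpx2, 17.5 for Stmn1 and 27.8 for Pcna. The summed Kupffer cell and neutrophil markers were also highest in that liver, and the part of these cells was not tested.

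The other flags were spread over libraries and genes. In liver, vehicle 2_1 had 7.25 FPKM of Rrm2. In muscle, treated 5_2 had 4.04 FPKM of Ccnd1, treated 5_5 had 0.453 FPKM of Tyms and treated 5_4 had 0.215 FPKM of Cdkn3. Treated muscle 4_5 had 2.78 FPKM of Mcm6, 0.238 FPKM of Top2a and 0.488 FPKM of Mki67. Vehicle muscle 2_1 had 3.97 FPKM of Rrm1, 0.318 FPKM of Ccna2 and 0.482 FPKM of Aurkb. Vehicle muscle 2_3 had 4.81 FPKM of Stmn1. The muscle values below 0.5 FPKM rested on 10 reads for Cdkn3, 22 for Ccna2, 24 for Aurkb and 38 for Top2a. Tyms had 49 reads and Mki67 had 87.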

How the results depend on the processing

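No gene of the list passed the test in either tissue or in the difference between tissues under any alternative, except Rrm2 in liver without treated 4_5 and 5_2 (1 gene called, −1.01, adjusted p = 0.0196). These 2 livers, left out together because an earlier account of these data had them apart, hold the 2 highest treated values of Rrm2 (7.92 and 4.21 FPKM), so their removal lowers it by construction and nothing is read from this call. Over all genes the liver call count was 28, and it was 0 with no filter, 144 without 4_5 and 5_2 together, and 0 to 83 with 1 library left out (0 without vehicle 2_3 or without treated 5_3, 83 without treated 5_2). In muscle 0 became 1 with upper quartile scaling, 1 with array weights, and 0 to 1 with 1 library left out. For the difference between tissues 1 became 3 with voom and 0 to 2 with the 2 libraries of 1 number left out.

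With the replicate block, which pairs liver and muscle libraries of the same number, 3 genes were called and Ccnd1 had an adjusted p of 0.329, against 0.905 without it. The labels give only the shared number: deviations of same-numbered libraries correlated from −0.078 to 0.447, and 7 of 12 libraries correlated best with their own number.

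Log2 fold changes near 0 changed sign. In liver Birc5 was −0.012 with pseudocount 0.1 and −0.024 with voom, Mcm4 was 0.010 with array weights, and without 4_5 and 5_2 Hmgb2 was −0.16 and Tyms −0.0032. With 1 liver left out, Stmn1 ranged from −0.30 to 0.0055, Hmgb2 from −0.089 to 0.24, Mcm4 from −0.21 to 0.015, Rrm1 from −0.11 to 0.045, Ube2c from −0.26 to 0.13, Ccne1 from −0.11 to 0.054, Birc5 from −0.011 to 0.15 and Mki67 from −0.099 to 0.032. In muscle Mcm6 was −0.0011 with pseudocount 0.1, −0.0021 with voom and −0.066 without 4_5 and 5_2. Mcm3 was −0.0083 with array weights, and without 4_5 and 5_2 Mcm3 was −0.11 and Mcm7 −0.048. With 1 muscle left out, Mcm7 ranged from −0.013 to 0.088, Hmgb2 from −0.074 to 0.082, Mcm6 from −0.051 to 0.029, Mcm3 from −0.056 to 0.074 and Tk1 from −0.016 to 0.034. The causes were not tested.

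Low levels limit the limma fit: 21 of the 34 in muscle and 11 in liver were below its filter, which is set in FPKM and not in reads. All 34 in liver and 31 in muscle had enough reads for the voom fit. The other 3 in muscle were under its minimum of reads and were not tested.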
